A study of Mus musculus with 24 samples.

Results

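De novo lipogenesis, the making of fatty acids from sugar-derived carbon, was followed through 10 genes in mouse hepatocytes, chosen by symbol from the 55421 genes of the count table. They were 3 regulators (Srebf1, Mlxipl and Thrsp) and 7 enzymes (Acly, Me1, Acaca, Acacb, Fasn, Elovl6 and Scd1), and all 10 were among the 13583 genes with enough reads to test. Hepatocytes of 24 male mice were profiled by polyA RNA sequencing, 6 mice in each of 4 groups made of young or old mice fed ND or HFD. Young mice were 6 months old and old mice 24 months old per the labels, which differ from the ages in the study's text, and the normal diet (ND) was a Teklad chow with 18% protein. The high-fat diet (HFD, 58Y1) took 60% of its energy from fat and was fed for 9 weeks. Young mice were labelled C57BL/6N and old mice C57BL/6J, so that substrain and age are confounded and cannot be told apart, and the labels' chow differs from the purified normal diet named in the study's methods. The livers were digested with collagenase after CO2 euthanasia and hepatocytes were purified on Percoll. Per the study's methods both diets were available ad libitum up to collection, and the time of day is not given in the sources used here. Each title names Batch1 or Batch2, with 3 mice of each group in each batch except old ND, which had 2 and 4. The design asks how the diet acts at each age, how age acts on each diet, and whether the diet effect differs with age.

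The pathway turns citrate from mitochondria into fat. Acly (ATP citrate lyase) splits citrate to cytosolic acetyl-CoA, and Me1 (malic enzyme) makes NADPH from malate. Acaca and Acacb (acetyl-CoA carboxylases) make malonyl-CoA. The Acaca product feeds synthesis, while malonyl-CoA from mitochondria-bound Acacb restrains fatty acid entry into mitochondria. Fasn (fatty acid synthase) builds palmitate, Elovl6 lengthens it, and Scd1 (stearoyl-CoA desaturase) introduces a double bond. Srebf1 encodes SREBP-1, whose liver form SREBP-1c is driven by insulin and cut from a membrane precursor. Mlxipl encodes ChREBP, which responds to sugar, and Thrsp (Spot 14) is a small nuclear protein induced by thyroid hormone and carbohydrate. In liver the pathway is known for rising with carbohydrate feeding and falling with fasting and dietary polyunsaturated fat.

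The sequences before the transcription starts are shown first, because SREBP-1 binds sterol regulatory elements, ChREBP and other factors bind E-boxes, and NF-Y binds the CCAAT box. RefSeq (GRCm38.p6) gave 13 windows of 250 bases before a start for 9 of the 10 members. These are Srebf1 with 3 starts, Mlxipl and Me1 with 2 each, and Thrsp, Acly, Acaca, Acacb, Fasn and Elovl6. The windows of Acaca (chr11:84195188-84195437) and Acacb (chr5:114165268-114165517) lie inside the gene spans given below. The sequence before those 2 spans is therefore not covered. The windows below are those of Fasn and Acly, the pair of enzymes whose levels followed each other most closely between mice, and the regulator windows with a match to the sterol regulatory element, its core or the E-box. Each reads 5′ to 3′ on the gene's strand, and capitals mark matches on either strand to TCACNCCAC, to its shorter core TCACCC, to CACGTG or to CCAAT.
Fasn (chr11:120824548-120824797, minus strand): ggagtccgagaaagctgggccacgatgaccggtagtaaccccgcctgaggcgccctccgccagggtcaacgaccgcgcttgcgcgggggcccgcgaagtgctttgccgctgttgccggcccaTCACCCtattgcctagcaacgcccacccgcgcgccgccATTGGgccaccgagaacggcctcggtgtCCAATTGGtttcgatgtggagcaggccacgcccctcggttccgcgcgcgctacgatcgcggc
Acly (chr11:100528001-100528250, minus strand): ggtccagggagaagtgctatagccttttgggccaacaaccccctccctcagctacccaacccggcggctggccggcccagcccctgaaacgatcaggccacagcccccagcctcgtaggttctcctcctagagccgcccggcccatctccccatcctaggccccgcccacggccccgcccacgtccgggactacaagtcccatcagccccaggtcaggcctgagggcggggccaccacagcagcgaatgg
Srebf1, most downstream start (chr11:60210472-60210721, minus strand): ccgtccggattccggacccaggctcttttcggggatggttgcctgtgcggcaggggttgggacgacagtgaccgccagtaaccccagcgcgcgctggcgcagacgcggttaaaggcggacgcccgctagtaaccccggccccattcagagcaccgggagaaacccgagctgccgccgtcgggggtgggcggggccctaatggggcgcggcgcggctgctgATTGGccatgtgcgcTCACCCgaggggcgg
Mlxipl, downstream start (chr5:135106641-135106890, plus strand): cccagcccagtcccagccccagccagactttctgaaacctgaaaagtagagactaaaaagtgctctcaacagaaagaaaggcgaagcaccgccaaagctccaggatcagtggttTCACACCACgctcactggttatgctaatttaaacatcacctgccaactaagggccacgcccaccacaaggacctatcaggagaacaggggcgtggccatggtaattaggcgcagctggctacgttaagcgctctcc
Mlxipl, upstream start (chr5:135089640-135089889, plus strand): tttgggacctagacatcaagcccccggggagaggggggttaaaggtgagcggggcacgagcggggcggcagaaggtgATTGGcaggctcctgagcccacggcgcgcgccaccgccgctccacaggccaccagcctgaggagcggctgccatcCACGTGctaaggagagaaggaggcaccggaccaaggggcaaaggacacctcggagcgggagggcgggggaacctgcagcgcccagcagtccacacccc
The sterol regulatory element TCACNCCAC was present in 1 of the 13 windows, 136 bases before the downstream Mlxipl start, and in 1.05% of all 32851 windows of this length. The core TCACCC, which was chosen after the sequences were seen and lies within TCACNCCAC where N is C, was present in 3 of the 13 windows and in 13.8% of all. It lay 128 bases before the Fasn start, 15 bases before the most downstream Srebf1 start and 102 bases before the upstream Me1 start. The E-box CACGTG was present in 1 window, 98 bases before the upstream Mlxipl start, against 6.02% of all. The CCAAT box was present in 7 of the 13, belonging to 6 genes, against 33.8% of all. The Fasn window alone held 3 matches, where CCAAT and its complement ATTGG overlap once, while the Acly window held no match to any of the 4 motifs. A match is a description of the letters and not of a bound factor. In the GENCODE annotation of GRCm38, the regulators lie at separate loci, Srebf1 at chr11:60199089-60222581, Mlxipl at chr5:135089890-135138382 and Thrsp at chr7:97412938-97417730. The enzymes Acly at chr11:100476353-100528000, Acaca at chr11:84129672-84401651 and Fasn at chr11:120805846-120824547 share a chromosome with Srebf1. Elsewhere lie Acacb at chr5:114146535-114250761, Elovl6 at chr3:129532355-129638495, Scd1 at chr19:44394455-44407879 and Me1 at chr9:86581371-86695953.

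The genes differed widely in level. Levels were compared between genes as CPM (counts per mouse scaled to a common library size) divided by the length of the merged annotated exons in kilobases, because the deposited FPKM values were scaled by the whole gene with its introns. Over 13177 genes the length implied by CPM and FPKM was a median of 0.973 times the gene span and 5.02 times the exon length. Per kilobase of exon, Scd1 ranked first of the 10 with a mean of 2671 ± 749 CPM (SD, n = 6) in young ND. Thrsp followed at 140.6 ± 50.7, Me1 at 101.8 ± 14.3, Acly at 91.5 ± 16.4 and Fasn at 86.4 ± 31.3. Srebf1 stood at 51.1 ± 13.1, Mlxipl at 37.4 ± 10.3 and Elovl6 at 25.6 ± 6.35. Acacb at 15.998 ± 5.32 and Acaca at 6.67 ± 0.917 were lowest. From Thrsp down to Acacb each gene overlapped the next within 1 SD of both means, while Scd1 above and Acaca below did not. Scd1 and Thrsp were first and second, and Elovl6, Acacb and Acaca the lowest of the 10, in all 4 groups. Together the 10 genes made up 1.59% ± 0.422 (SD, n = 6) of the young ND counts, and Scd1 alone made up 1.29% ± 0.372. In young HFD their share was 0.893% ± 0.388. Old ND had 1.62% ± 0.649, and 0.761% ± 0.402 was found for old HFD. The ranges of this share overlapped between the diets at both ages.

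All 7 enzymes fell on HFD when young and old mice were analysed jointly, and none of the 3 regulators passed the test in either direction. Among all tested genes 7.78% were called lower in this comparison, where called means a Benjamini-Hochberg adjusted p below 0.05, over all 13583 genes, in the quasi-likelihood test of edgeR. The comparison over both ages was added after the values at each age had been seen. The largest fall was that of Scd1, which fell by 56.3% (log2 fold change -1.19 ± 0.30, SE, edgeR adjusted p = 0.0107). The change of Acacb was -52.1% (edgeR adjusted p = 0.00705), that of Me1 -51.7% (0.00465), that of Fasn -48.0% (0.0179) and that of Acly -47.1% (0.0052). For Acaca it was -39.3% (0.00472) and for Elovl6, the smallest of the 7, -36.3% (0.0210). The median log2 fold change was -0.94 over the 7 enzymes and 0.03 over all tested genes. Of the regulators, Srebf1 had a log2 fold change of 0.45 ± 0.17 (SE, edgeR adjusted p = 0.0803), Mlxipl of -0.11 ± 0.14 (0.622) and Thrsp of 0.09 ± 0.30 (0.863). DESeq2 called the same 7 enzymes lower, against 7.69% of its genes, and also called Srebf1 higher (adjusted p = 0.0363). Without old ND replicate 2 the adjusted p of Elovl6 was 0.0567. Without old ND replicate 5 or old HFD replicate 5, Srebf1 was called higher by edgeR (adjusted p = 0.0295 and 0.0453).

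**Figure D1:**
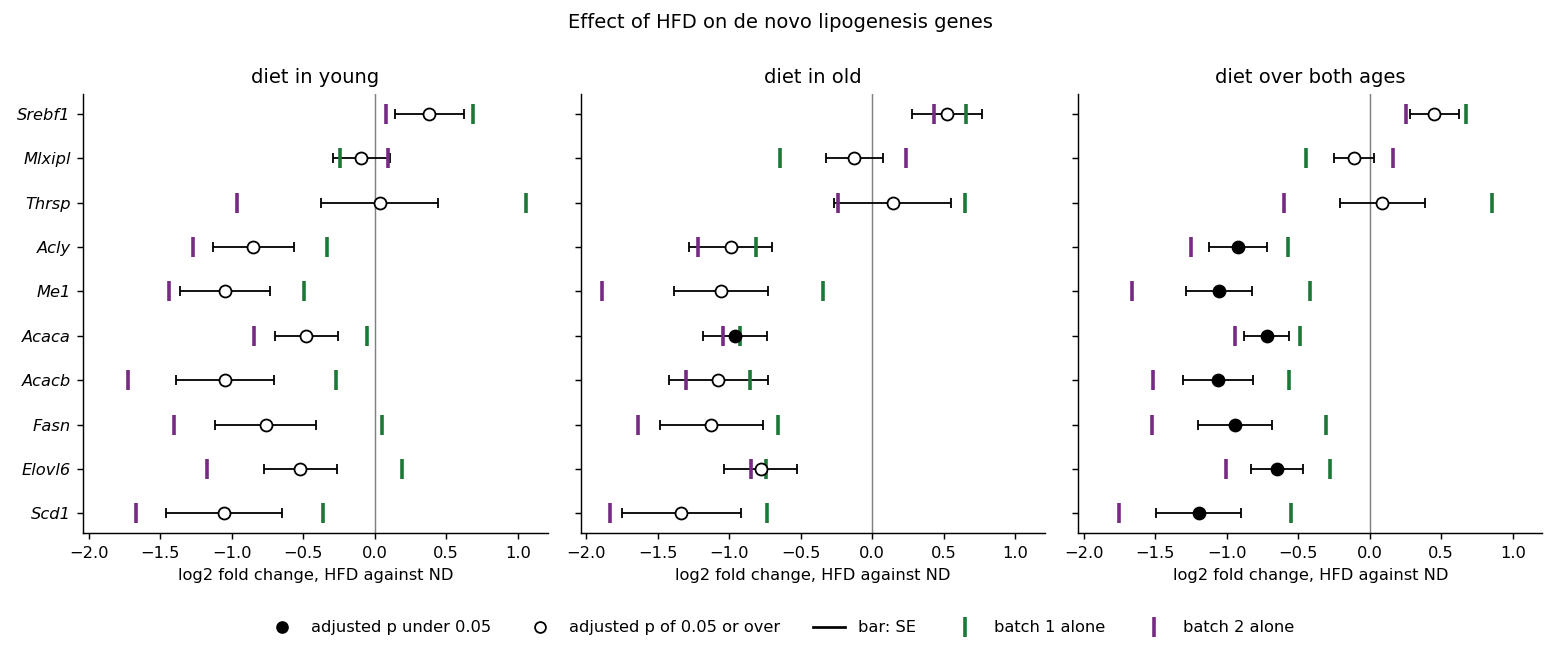
Log2 fold change of HFD against ND (horizontal axis) for each gene in young mice, in old mice and over both ages. Circles are the edgeR estimates with all 24 mice, filled where the adjusted p is under 0.05, bars are SE, and coloured ticks are the estimates from 1 batch alone. The circles of the 7 enzymes lie left of 0 in each panel, while the batch 1 ticks of Fasn (0.05) and Elovl6 (0.19) in young mice lie right of it.

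Srebf1 had a higher median on HFD than on ND at each age. Its level per mouse, in CPM, ran from 146 to 351 with a median of 302 in young ND, and from 230.0 to 603 with a median of 348 in young HFD. In old ND it ran from 152 to 423 with a median of 241, and in old HFD from 245 to 443 with a median of 368. The groups overlapped, and 3 of the 6 young and 1 of the 6 old HFD mice were above every ND mouse of their age. Its log2 fold change was 0.38 ± 0.24 (SE, edgeR adjusted p = 0.393) in young and 0.52 ± 0.24 (0.208) in old mice. Rai1, which overlaps the Srebf1 locus on the other strand, had 2.65% as many counts.

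Mlxipl levels overlapped between the diets at both ages. They ran from 147 to 287 CPM (median 190.2) in young ND and from 116 to 322 (median 194) in young HFD. In old ND they ran from 164 to 320.2 (median 261) and in old HFD from 94.3 to 464 (median 188), the widest range of its 4 groups. The 3 old HFD mice of batch 1 had 94.3, 99.0 and 179.9 CPM and those of batch 2 had 197, 332 and 464. In each of the 4 groups the Mlxipl levels of batch 1 lay below those of batch 2 without overlap, as did those of 2.25% of all tested genes. Thrsp levels also overlapped. They ran from 147 to 447 CPM (median 291) in young ND and from 98.6 to 760.3 (median 254) in young HFD. In old ND they ran from 97.5 to 496 (median 218) and in old HFD from 117 to 434 (median 310.3). For Thrsp the diets overlapped throughout, and the diet difference had opposite signs in the batches, as described below.

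Of the enzymes that supply carbon and reducing power, Acly ran from 399 to 596 CPM (median 446) in young ND and from 135 to 461 (median 251) in young HFD. Among old ND mice it ran from 198 to 589.5 (median 417) and in old HFD from 119 to 444 (median 162). At each age 4 of 6 HFD mice were below every ND mouse. Me1 ran from 289.5 to 444 CPM (median 399) in young ND and from 123 to 283 (median 200.001) in young HFD, and it was the one member whose young groups did not overlap. Of all tested genes 3.06% had every young HFD mouse below every young ND mouse. The range was 83.9 to 369 (median 219.8) in old ND and 43.8 to 253 (median 137) in old HFD. The old groups overlapped, where 3 of the 6 HFD mice lay under all ND mice, and the lowest old ND mouse was replicate 4.

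The carboxylases also had lower medians on HFD at each age. Acaca ran from 103 to 145 CPM (median 108) in young ND and from 51.7 to 113 (median 85.0) in young HFD. In old ND it ran from 80.9 to 163 (median 120.5) and in old HFD from 31.0 to 107 (median 56.6). At each age 4 of 6 HFD mice were below every ND mouse. Acacb ran from 99.0 to 233 CPM (median 144) in young ND and from 31.7 to 122 (median 78.5) in young HFD. The range was 124 to 229 (median 145) in old ND and 33.0 to 153 (median 60.7) in old HFD. Here 4 of 6 young and 5 of 6 old HFD mice were below every ND mouse of their age. Gm11437, on the strand opposite Acaca, had 4.999% as many counts as Acaca, and reads from the overlap cannot be told apart if strand was not used.

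Downstream, Fasn ran from 454 to 1481 CPM (median 892) in young ND and from 289 to 956 (median 551) in young HFD. The range was 442 to 1499 (median 812) in old ND and 209 to 816 (median 296) in old HFD. The overlap of the diets was larger in young mice, where 1 HFD mouse was below every ND mouse, than in old mice, where 4 were. Elovl6 ran from 127 to 234 CPM (median 158) in young ND and from 68.2 to 174 (median 123) in young HFD. In old ND it ran from 107 to 297 (median 173) and in old HFD from 70.0 to 177 (median 116). Fewer mice stood apart for Elovl6, 3 young and 2 old HFD mice lying below every ND mouse. Scd1 ran from 7659 to 18710.4 CPM (median 13412) in young ND and from 1157 to 11908 (median 6644) in young HFD. The range was 5877 to 22289 (median 12970.5) in old ND and 3094 to 11617 (median 4493) in old HFD. At each age 4 of 6 HFD mice were below every ND mouse, and young HFD replicate 6 had the lowest Scd1 level of all 24.

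**Figure D2:**
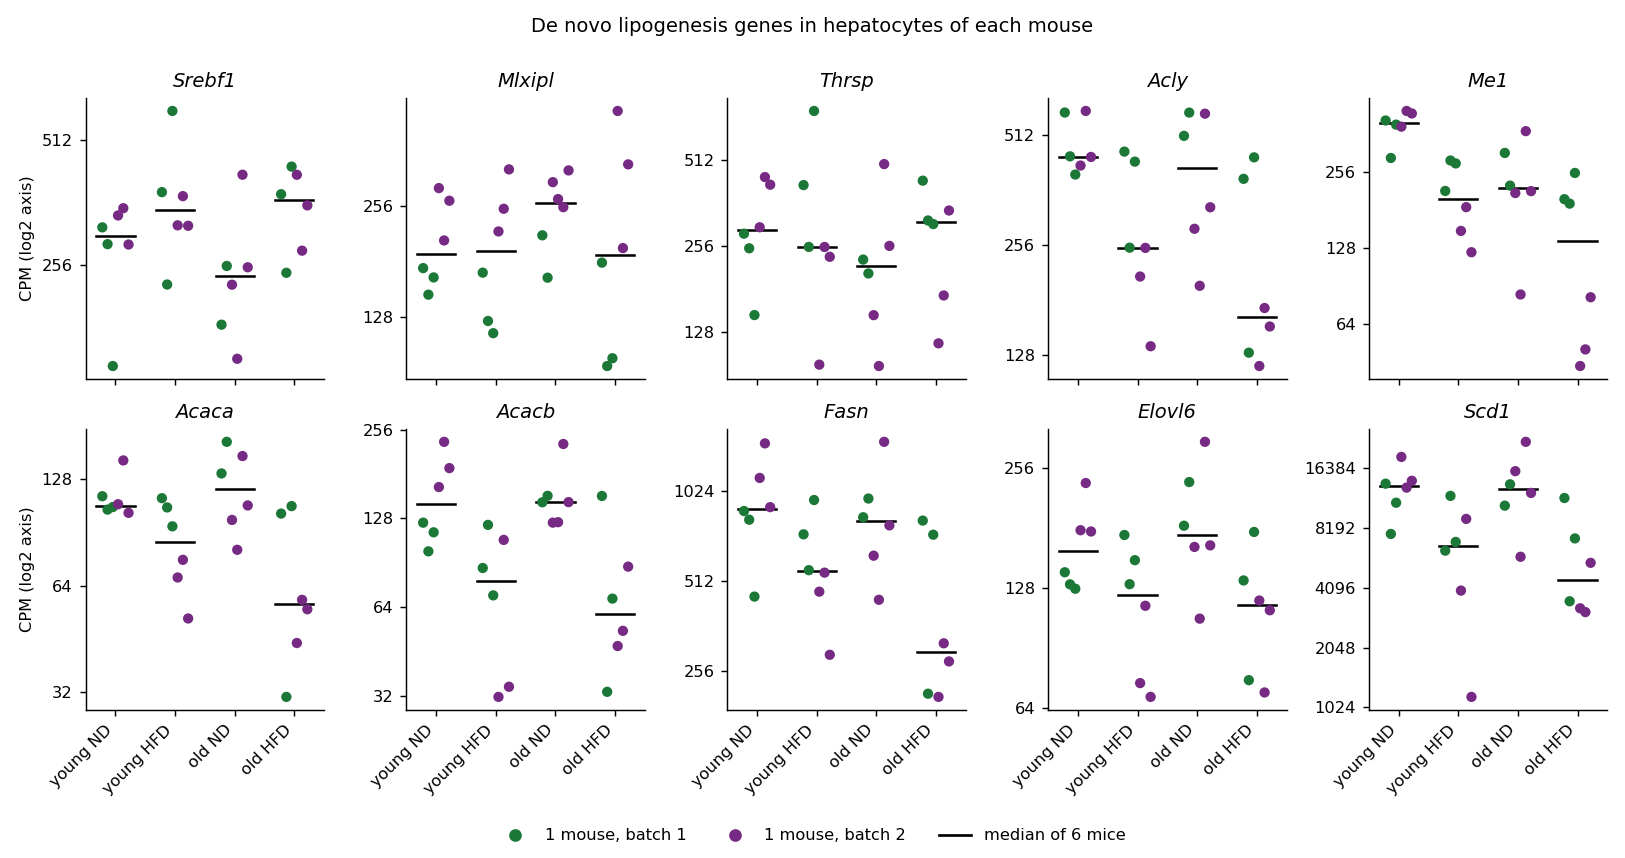
CPM (log2 axis) of each gene in each mouse by group, coloured by batch, with the median of 6 mice as a line. The HFD medians of the 7 enzymes lie below the ND medians at both ages, for example 6644 against 13412 CPM for Scd1 in young mice, while those of Srebf1 lie above.

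Taken at each age alone, the enzyme differences were of similar size but mostly missed the threshold after adjustment. In young mice 0 of the 10 genes were called, against 3.50% of all tested genes, although 6 had an unadjusted p under 0.05, as did 21.2% of all tested genes, and the lowest adjusted p was that of Me1 (log2 fold change -1.04 ± 0.31, SE, edgeR adjusted p = 0.0622). DESeq2 called 3 of them lower, Acly, Acacb and Me1, against 2.72% of its genes. In old mice only Acaca was called (log2 fold change -0.96 ± 0.22, SE, edgeR adjusted p = 0.0231), against 1.64% of tested genes called lower, while DESeq2 called all 7 enzymes lower, against 4.02%. The other 6 enzymes had edgeR adjusted p of 0.0568 (Acly) to 0.0805 (Elovl6) in old mice. The median log2 fold change of the 7 enzymes was -0.85 in young and -1.06 in old mice, against 0.01 and -0.01 over all tested genes. With no filter on low counts, edgeR called 7 members at each age, against 1.20% and 1.75% of its genes called lower.

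These counts depended on single mice. In young mice Me1 was called without old ND replicate 4 (edgeR adjusted p = 0.0426) or old ND replicate 5 (0.0418), against 1.59% and 1.51% of tested genes called lower. These are mice that enter the comparison only through the shared spread, scaling and batch terms. Without old HFD replicate 2, Me1, Acly and Acacb were called in young mice, where the share of all tested genes called lower was also larger, at 3.55%. In old mice 5 members were called without old HFD replicate 1, and 5 without old HFD replicate 3. The share of all tested genes called lower was then 2.77% and 2.58%, also above the 1.64% with all mice. Replicate 1 had the highest Fasn and Scd1 levels of its group and replicate 3 the highest Acly level. Without old ND replicate 4, Acly, Me1 and Acaca were called in old mice (1.42% of tested genes called lower), and without young ND replicate 5, Acly and Acaca (1.57%). Without old ND replicate 2 none was called in old mice, against 0.376% of tested genes, the adjusted p of Acaca then being 0.0790.

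The batches gave different sizes of fold change. Over both ages the log2 fold change of every one of the 7 enzymes was lower in batch 2 alone, with a median of -1.51, than in batch 1 alone, with a median of -0.49. Me1 had -0.42 in batch 1 and -1.66 in batch 2, Fasn -0.30 and -1.52, and Scd1 -0.55 and -1.75. Within young mice of batch 1 the enzymes ranged from -0.49 (Me1) to 0.19 (Elovl6), and Fasn stood at 0.05. Thrsp had log2 fold changes of 0.85 in batch 1 and -0.60 in batch 2, and Srebf1 of 0.67 and 0.26. A test of diet by batch called 0 of the 10 genes and 0.00% of all genes tested. Before adjustment 6 members (Thrsp, Me1, Fasn, Elovl6, Scd1 and Acacb) had an edgeR p under 0.05, as did 6.31% of all genes tested. The lowest adjusted p was that of Me1 (edgeR adjusted p = 0.572). In batch 1 alone none of the 10 was called over both ages, against 1.52% of tested genes called lower. In batch 2 alone 5 were called lower (Acly, Acaca, Acacb, Fasn and Me1), against 0.520%. The titles do not say what distinguishes the batches.

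Age alone moved none of the members past the threshold. On ND 0 of 10 were called, against 8.50% of all tested genes, and on HFD 0 of 10, against 2.24%, with 1 member (Me1) at an unadjusted edgeR p under 0.05 on each diet, as were 22.2% of all tested genes on ND and 21% on HFD. DESeq2 called 0 of the 10 on either diet, against 9.63% of its genes on ND and 5.52% on HFD. On ND, where 7.26% of tested genes were called higher in old mice, so were 9 of 9 Kupffer cell and macrophage markers (median log2 fold change 3.42), 7 of 8 stellate (2.2) and 5 of 8 sinusoidal endothelial markers (1.52), and 0 of 9 hepatocyte markers were called. On HFD, where 1.82% of tested genes were called higher, 0 markers of these lists were, with medians of 0.96, 0.54 and -0.02. On ND the summed Kupffer cell markers had a median of 24.1 CPM in young and 115 in old mice, where replicate 4 alone stood at 1233. The part of Kupffer, stellate and endothelial cells in the members' age values was not tested. The largest age difference was that of Me1, with a log2 fold change of -0.68 ± 0.31 (SE, edgeR adjusted p = 0.187) on ND and -0.70 ± 0.31 (0.205) on HFD. Without old ND replicate 5, Me1 was called on ND (log2 fold change -0.95, edgeR adjusted p = 0.0430). Acacb stood at -0.00 on ND and -0.03 on HFD, and the remaining enzymes lay between -0.18 and 0.23 on ND and between -0.49 and -0.04 on HFD. The age by diet interaction called 0 of the 10 genes and 0.00% of all, with 1247 genes (9.18%) at an unadjusted p under 0.05, none of them members. The interaction of Acaca was the largest of the 10, at -0.48 ± 0.31 (SE, edgeR adjusted p = 0.634), and a difference between the ages in the diet effect was not detectable in these mice.

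Old HFD against young ND, the contrast that joins age and diet, called 6 of the 7 enzymes lower, against 12.9% of tested genes called lower. Me1 fell most, by 70.1% (log2 fold change -1.74 ± 0.33, SE, edgeR adjusted p = 0.000764), and all 6 old HFD mice were below all 6 young ND mice, as for 4.27% of tested genes. The change was -58.4% for Scd1 (edgeR adjusted p = 0.0236), -58.0% for Fasn (0.0121), -55.7% for Acly (0.00482), -52.6% for Acacb (0.0212) and -43.7% for Acaca (0.00823). Elovl6 had a log2 fold change of -0.56 ± 0.25 (adjusted p = 0.0983), and the regulators lay between -0.20 (Thrsp) and 0.31 (Srebf1). Markers of other cells moved in the same contrast, where 17.3% of tested genes were called higher. Called higher were 8 of 9 Kupffer cell and macrophage markers (median log2 fold change 2.93), 8 of 8 sinusoidal endothelial (1.45) and 6 of 8 stellate cell markers (1.93), and 3 of 4 tested lymphocyte, 1 of 2 cholangiocyte and 3 of 3 adipocyte markers. The summed Kupffer cell markers ran from 1.75 to 80.3 CPM in young ND and from 87.0 to 645 in old HFD, without overlap. Of 9 hepatocyte markers 3 were called lower and 1 higher (median -0.42). The part of these cells in the enzyme values was not tested. These calls share the young ND mice with the diet comparison in young mice. In batch 1 alone 1 member (Me1) was called lower, against 2.55% of tested genes, and in batch 2 alone 5 were (Acly, Acaca, Acacb, Fasn and Me1), against 1.93%. Acacb was not called without young ND replicate 5 (adjusted p = 0.0540) or old HFD replicate 4 (0.0610). Scd1 was not called without young ND replicate 4 (0.0541), old HFD replicate 4 (0.0657) or old HFD replicate 5 (0.0530).

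Because the enzymes and Srebf1 lay on opposite sides of 0, the log2 ratio of each enzyme to Srebf1 within a mouse was compared, a comparison added after the values were seen. In young mice the ratio of Acly was -0.42 ± 0.55 (SD, n = 6) on HFD and 0.78 ± 0.38 on ND, and every HFD mouse was below every ND mouse. The ratio of Fasn was 0.64 ± 0.47 on HFD and 1.68 ± 0.22 on ND in young mice, also without overlap. In old mice the ratios of Acly, Acaca, Acacb, Fasn, Elovl6 and Scd1 did not overlap between the diets, and that of Elovl6 was -1.67 ± 0.23 on HFD and -0.38 ± 0.25 on ND. Of all other tested genes, 1.05% in young and 1.49% in old mice had a ratio to Srebf1 that was lower on HFD without overlap. The differences ran from -0.83 (Acaca) to -1.61 (Scd1) in young and from -1.36 (Elovl6) to -1.94 (Scd1) in old mice, against medians of -0.35 and -0.60 over all tested genes. The differences average those within the batches. They are a description with no test, because the ratio was formed after the enzymes and Srebf1 were seen on opposite sides of 0. The ratio was lower on HFD in each batch for each enzyme, with the Fasn difference at -0.58 in batch 1 and -1.51 in batch 2 in young mice. What moved the ratio differed between the batches. In young mice Srebf1 had a log2 fold change of 0.69 in batch 1 alone and 0.08 in batch 2 alone. The median of the 7 enzymes was -0.27 in batch 1 alone and -1.40 in batch 2 alone.

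**Figure D3:**
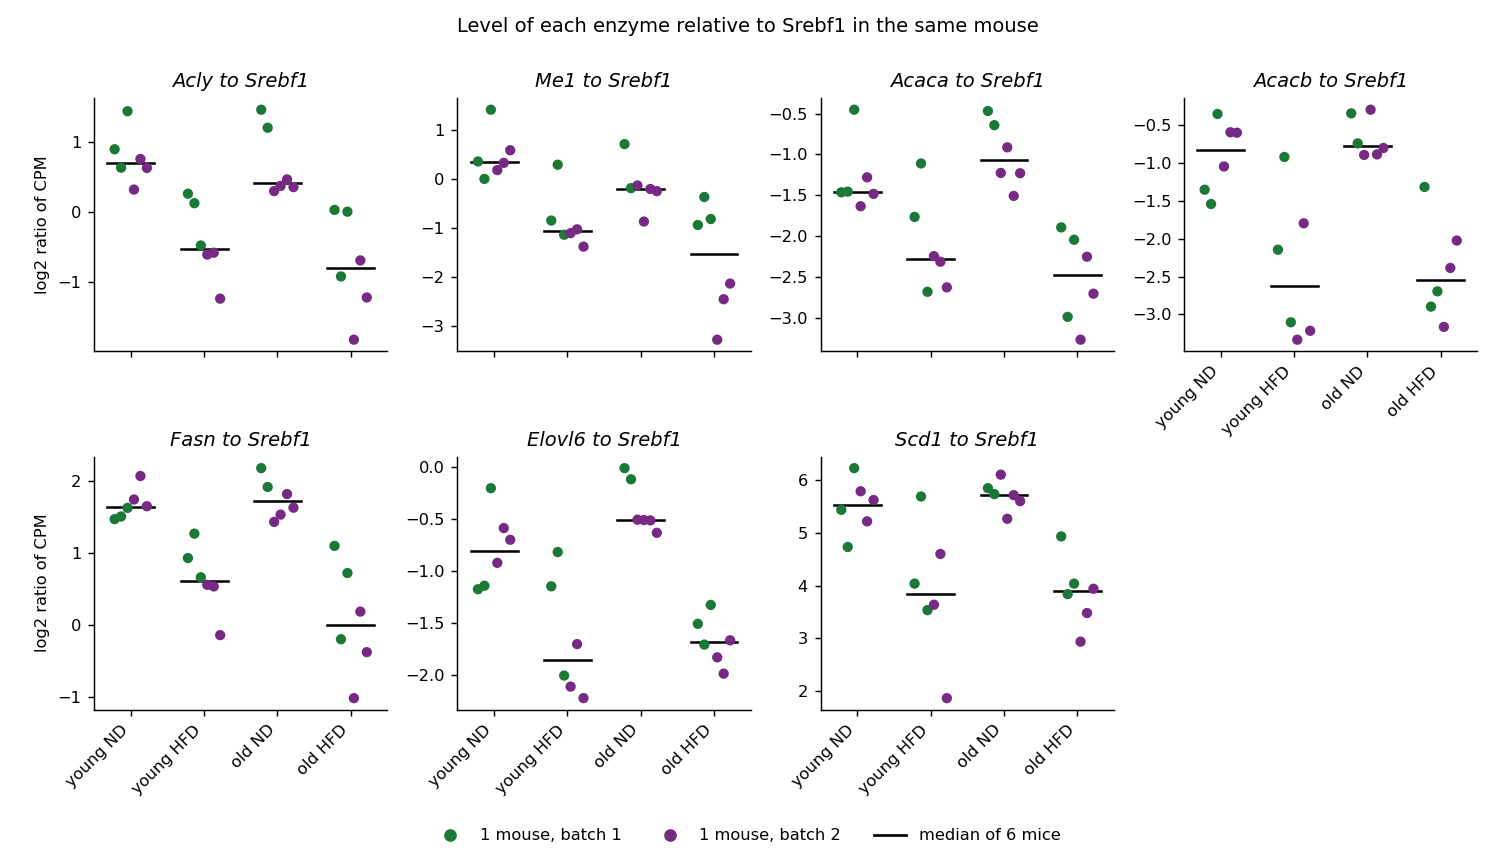
Log2 ratio of the CPM of each of the 7 enzymes to that of Srebf1 in the same mouse (vertical axis) by group, coloured by batch, with the group median as a line. Most HFD mice sit below the ND mice of their age, without overlap for 2 enzymes in young and 6 in old mice.

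Between mice of the same group and batch the enzyme pairs were positively correlated. Over the 24 mice, with the mean of each group and batch removed from log2 CPM, the 21 pairs of enzymes had Pearson r from 0.446 to 0.948 with a median of 0.628. Of all pairs of tested genes 12.4% had an r at or above the lowest of these and 4.03% one at or above their median, and the median over all pairs was near 0. Acly and Fasn were the closest pair (Pearson r = 0.948, permutation p = 1e-05, the smallest that 100000 permutations can give, adjusted 0.00045 over 45 pairs, Spearman rho = 0.925, permutation p = 3e-05, adjusted 0.00135). Their r was 0.908 without the 2 mice farthest from the median of Acly, 0.923 in batch 1 and 0.9804 in batch 2. Srebf1 followed Fasn (r = 0.768, permutation p = 0.00059, adjusted 0.00531, rho = 0.768, permutation p = 0.00073, adjusted 0.00684, r = 0.722 without the 2 farthest mice). It also followed Elovl6 (r = 0.738, permutation p = 0.0001, adjusted 0.00225, rho = 0.789, permutation p = 7e-05, adjusted 0.00157, r = 0.689 without the 2 farthest). With Acacb it did not pass (r = 0.236, permutation p = 0.280, adjusted 0.360, rho = 0.240, permutation p = 0.299, adjusted 0.396, r = 0.253 without the 2 farthest). Of the 7 enzymes, Srebf1 passed with 3 by either measure, which were Fasn, Elovl6 and Acly. With Acaca, Scd1 and Me1 it did not pass either. Of the 21 enzyme pairs 13 passed by Pearson r and 10 by Spearman rho after adjustment over the 45 pairs, and of all 45 pairs 19 and 13. The lowest r that passed was 0.448, and 12.3% of all pairs of tested genes had an r as high or higher. Mlxipl passed with none of the other 9, with r from -0.103 to 0.229. These values join batches of unlike sign, its median r with the 7 enzymes being 0.411 in batch 1 and -0.167 in batch 2. The median r of Me1 with the other 9 members was 0.127 in batch 1 and 0.785 in batch 2. In batch 1 alone none of the 45 pairs passed and in batch 2 alone 5 did. Points of 1 mouse share a library, its depth and its cell preparation.

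**Figure D4:**
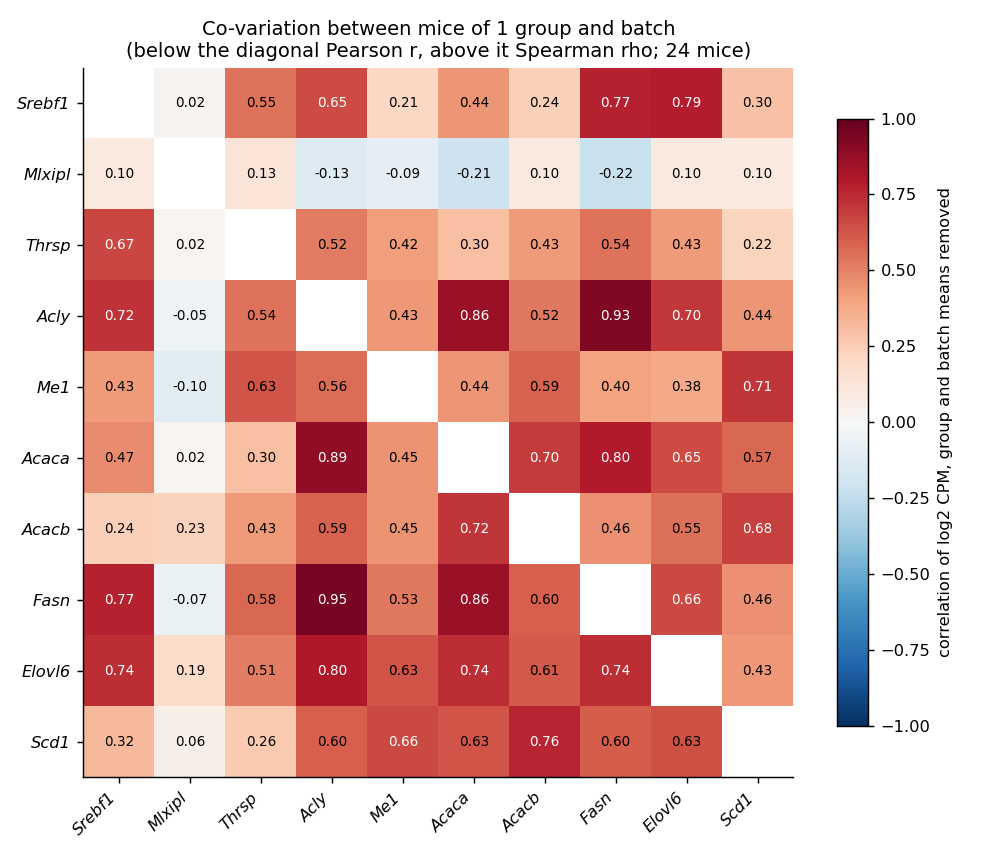
Correlation of log2 CPM between each pair of the 10 genes over 24 mice, after the mean of each group and batch was removed, with Pearson r below the diagonal and Spearman rho above it. The enzymes form a block of positive values, from an r of 0.446 upward, and Mlxipl has an r of at most 0.229 with any other gene.

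Among 10449 other genes with a mean of at least 1 log2 CPM, those most like the members' mean z-score over the 24 mice, with group and batch means removed, were Fads1 (r = 0.951), Tmem131l (0.929), Gpi1 (0.927), Tecr (0.910) and Hgfac (0.901). None of the 5 was called on HFD over both ages, against 13.8% of all tested genes, and 5 genes are too few to tell from that share. Fads1, a desaturase of polyunsaturated fatty acids, had a log2 fold change of 0.27 ± 0.14 (SE, edgeR adjusted p = 0.189).

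Genes of the neighbouring steps were listed by function, and their counts stand against 5.99% of all tested genes called higher and 7.78% called lower over both ages. Of 14 genes that supply citrate, acetyl-CoA and NADPH, 4 fell and 0 rose over both ages. G6pdx, which opens the NADPH-making pentose phosphate pathway, fell most (log2 fold change -1.12 ± 0.18, SE, edgeR adjusted p = 0.000314), and it was called lower in young and in old mice alone. The others were Acss2, which makes acetyl-CoA from acetate (-0.85 ± 0.21, adjusted p = 0.0113), the mitochondrial citrate carrier Slc25a1 (-0.37 ± 0.12, 0.0443) and Tkt, a transketolase (-0.32 ± 0.10, 0.0344). G6pdx stands at 5.48 CPM in young ND and 2.68 in young HFD, and reads of its intronless copy could be split between the genes.

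Among 14 tested genes for other elongases and desaturases, 3 rose and 2 fell over both ages, against the same shares of all tested genes. Fads2, which desaturates polyunsaturated fatty acids, rose (log2 fold change 0.75 ± 0.17, SE, edgeR adjusted p = 0.00462), as did Fads3 (0.88 ± 0.27, 0.0331) and Hacd3, a dehydratase of elongation (0.33 ± 0.09, 0.0142). Elovl3 fell (-1.14 ± 0.32, 0.0205), with means of 755 CPM in young ND and 218 in young HFD but 265 and 212 in old mice. Scd3, a neighbour of Scd1 in the same family, also fell (-1.93 ± 0.48, 0.0104), from a mean of under 1 CPM in each group.

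Of 18 genes for glycerolipid assembly 2 rose and 1 fell, against 5.99% and 7.78% of all tested genes. Mogat1, which acylates monoacylglycerol, rose (log2 fold change 2.10 ± 0.34, SE, edgeR adjusted p = 0.000358) and was called at each age, and Gpat3 rose (1.24 ± 0.24, 0.00156). Pnpla3, a lipid droplet protein, fell (-1.49 ± 0.47, 0.0372). Of 10 tested genes around malonyl-CoA and AMP kinase, Cpt1a, the gate for fatty acid entry into mitochondria that malonyl-CoA restrains, rose (0.69 ± 0.13, 0.00156), and Prkaa2, a catalytic subunit of AMP kinase, fell (-0.39 ± 0.13, 0.0437).

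Genes that control SREBP-1c and ChREBP mostly did not pass. Of 14 listed around SREBP-1c, 2 rose over both ages, Creb3l3 (log2 fold change 0.40 ± 0.09, SE, edgeR adjusted p = 0.00496) and Ppargc1b (0.72 ± 0.21, 0.0278), and Usf2 fell (-0.25 ± 0.08, 0.0394), against the same 5.99% and 7.78% of all tested genes. Creb3l3 is a membrane-bound factor of lipid metabolism, Ppargc1b a coactivator and Usf2 an E-box factor. Of 14 around sugar entry and ChREBP only Gckr, the regulator of glucokinase, was called (0.24 ± 0.08, 0.0369). Its means were 148 CPM in young ND and 194 in young HFD but 189 and 191 in old mice. Of 11 genes of the insulin pathway 3 fell and 0 rose, Irs2 (-0.85 ± 0.18, 0.00375), which carries the insulin signal inward, Tsc2 (-0.44 ± 0.12, 0.0140), which restrains mTORC1, and Akt1 (-0.30 ± 0.10, 0.0423). The medians of these lists were 0.01, 0.05 and -0.27, against 0.03 over all tested genes.

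**Figure D5:**
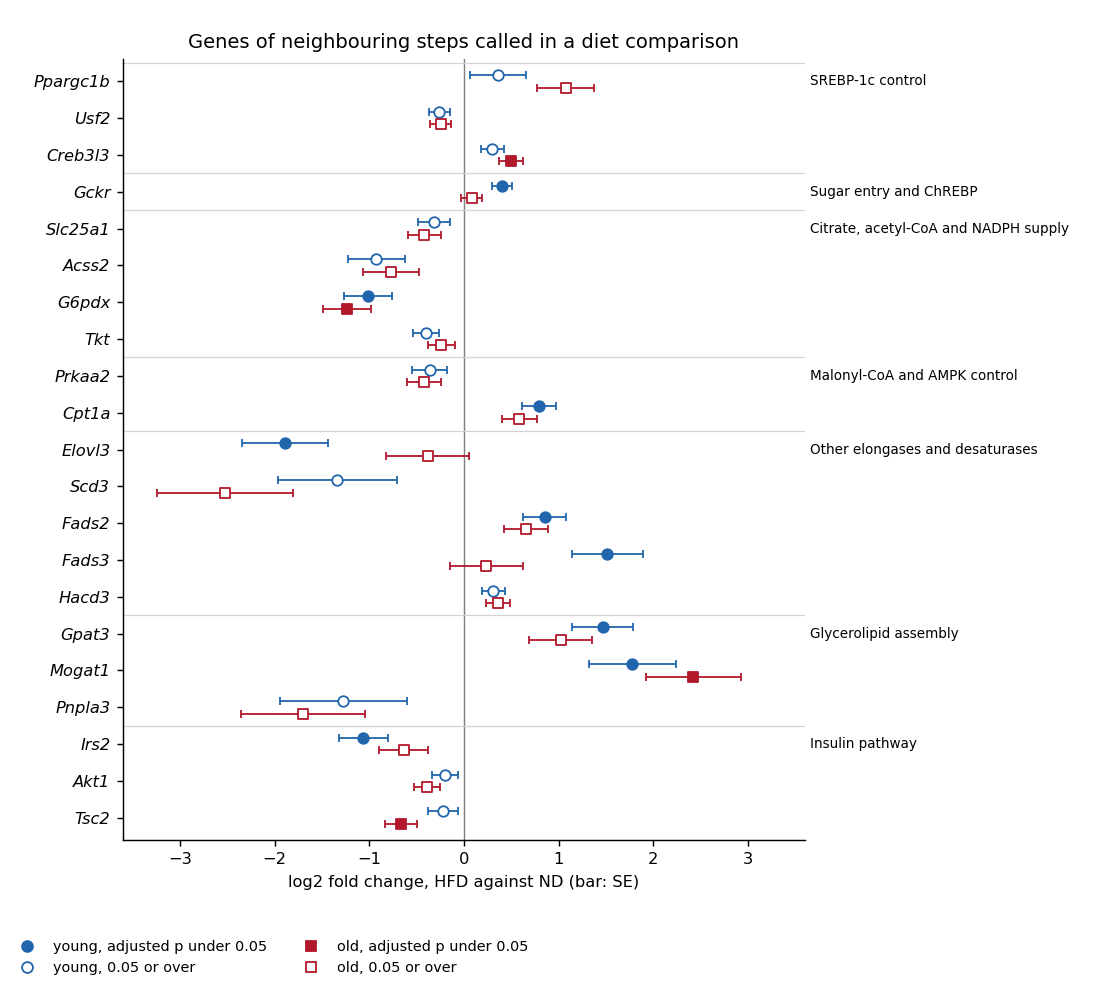
Log2 fold change of HFD against ND (horizontal axis, bars SE) in young (circles) and old mice (squares) for the listed genes of neighbouring steps that were called in a diet comparison, filled where the edgeR adjusted p is under 0.05 at that age. G6pdx and Mogat1 are filled at both ages, on opposite sides of 0.

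Other features of the mice also differed with diet, and their part in the enzyme results was not tested. Of 18 clock genes 4 rose and 5 fell over both ages, against 5.99% and 7.78% of all tested genes, among them Nfil3 (log2 fold change -1.11 ± 0.20, SE, edgeR adjusted p = 0.000876), Clock (-0.55 ± 0.12, 0.00448), Per2 (1.07 ± 0.24, 0.00582) and Cry1 (-0.95 ± 0.22, 0.00585). Arntl fell too (-1.39 ± 0.32, 0.00605). Of 12 genes of the fasted liver 1 rose, Cpt1a, and 2 fell, Igfbp1 (-1.41 ± 0.32, 0.00591) and Pdk4 (-1.07 ± 0.32, 0.0303). The 9 measured hepatocyte markers summed to medians of 130624 CPM (ND) and 115506 (HFD) in young mice and of 130027 (ND) and 90983 (HFD) in old mice, and 3 of the 9 fell over both ages (Hnf4a, Fgb and Cps1). Bulk RNA cannot tell fewer cells of a type from less RNA per cell. In young mice all 9 Kupffer cell and macrophage markers had positive fold changes on HFD (median log2 fold change 2.21, 1 called) and their sum ran from 1.75 to 80.3 CPM on ND and from 14.6 to 193 on HFD. In old mice 7 of these 9 had negative fold changes (median -0.25, 0 called), with sums of 60.8 to 1233 on ND and 87.0 to 645 on HFD. Likewise the 8 sinusoidal endothelial and the 8 stellate cell markers all had positive fold changes in young mice (medians 1.49 and 1.62, 1 called each) and medians of 0.03 and -0.28 in old mice. Over both ages all markers of these 3 cell types had positive fold changes, with medians of 0.80 (Kupffer cell), 0.75 (endothelial) and 0.66 (stellate). Of them 2 endothelial markers were called, Stab2 (0.94 ± 0.27, SE, edgeR adjusted p = 0.0218) and Lyve1 (1.49 ± 0.47, 0.0387). Only 4 of 10 lymphocyte and 2 of 5 cholangiocyte markers could be tested. Of the adipocyte markers Cfd rose (4.34 ± 0.44, adjusted p = 1.47e-06), as did Fabp4 and Cidec, while Plin1 and Lep were at 0 counts in all 24 mice. Old ND replicate 4 had the lowest hepatocyte marker sum, at 55768 CPM, and the highest Kupffer cell sum, and it was also the lowest of its group for 8 of the 10 members. Total counts per mouse ran from 9200332 to 22185069, and each member had at least 404 counts in every mouse. Xist had at most 20 counts in any of these male mice, and Nnt, which is partly deleted in C57BL/6J, had group medians of 1.64 to 2.11 CPM and did not separate the substrains.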

How the data were processed

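PolyA RNA of hepatocytes from 24 mice was sequenced. Per the labels and the study's methods, the authors checked reads with FastQC 0.11.8, aligned them to mm10 with STAR 2.7.3a, and deposited gene counts made with HTSeq 0.11.2. The authors also deposited FPKM values from Cufflinks, which they adjusted for batch with ComBat. These scale with gene span, introns included, and are used here only in alternatives, so levels between genes are CPM per kilobase of merged GENCODE exons. Whether counting used strand is not given in the sources used here. Counts of 9200332 to 22185069 per mouse were fitted in R 4.3.3 with edgeR 4.0.16 (TMM scaling, filterByExpr, quasi-likelihood test, 4 groups plus batch), with Benjamini-Hochberg adjustment over 13583 genes. CPM values use TMM library sizes. Alternatives were DESeq2 1.42.0, limma 3.58.1 on log2(FPKM + 1) or log2(FPKM + 0.1), other filters and scalings, each batch alone, a replicate block, and each mouse left out. The fits were tested on simulated data. Correlations used 100000 permutations (scipy 1.17.1). Members and the gene lists were chosen with earlier results of these data known. From each list, at most the 4 called genes with the smallest adjusted p in each diet comparison were named, so some called genes are not. The 5 genes most like the members were also named. Further names are genes that overlap a member, markers at 0 counts, and Xist and Nnt. The comparison over both ages, diet by batch, the ratios to Srebf1, the exon-length levels, the correlations over all gene pairs and the core motif were chosen after seeing the data. Replicates are separate mice per the labels. The numbers were not taken to pair mice. Across 36 pairs of same-numbered mice, deviations from group means within batches correlated at r from -0.444 to 0.507, with a mean of -0.00199. With only group means removed the mean r was 0.182, and pairing was not tested further.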

Additional observations from a re-analysis of the deposited data

Results flagged for a closer look

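Among 40 tests of the lowest and highest mouse, 1 for each gene in each group on the log2 CPM scale, 4 had a mouse whose gap to its neighbour exceeded Dixon's critical value of 0.625 of the range, and chance alone gives about 5% of groups. Srebf1 in young ND replicate 3 stood at 7.19 log2 CPM (146 CPM), below the next mouse at 287 CPM. Me1 in young ND replicate 2 stood at 8.18 (289.5 CPM), below the next at 385 CPM. Acaca in young ND replicate 5 stood at 7.18 (145 CPM), above the next at 115 CPM. Acacb in old ND replicate 5 stood at 7.84 (229 CPM), above the next at 153 CPM.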

How the results depend on the processing

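Of 246 counts of members or pairs that passed under an alternative, 201 equalled the count reported, 20 others lay within 1.5 times of it, 9 were lower and 16 higher by more. Of 533 fold changes of single genes 450 kept their direction and side of the threshold and 18 reversed. In young mice (0 members called) DESeq2 called 3, edgeR without a count filter 7, and a fit of only the mice compared 2 (8.27% of its genes called lower). In old mice (1 called) DESeq2 called 7, no count filter 7 and limma on filtered FPKM 2 (2.18%), while no batch term (1.05%), only the mice compared (0.0874%), batch 1 alone (0.0812%) and batch 2 alone (0.0843%) each called 0. Over both ages (7 called) batch 1 alone called 0. For old HFD against young ND (6 called) batch 1 alone called 1. Without a count filter age called 1 (Me1, lower) on ND and on HFD, against 0.881% and 1.11% of genes called lower. Of the 19 pairs that passed, 0 passed in batch 1 alone, and batch 2 alone had 5. The cause was not tested. Leaving out each mouse gave 0 to 3 members called in young mice, 0 to 5 in old mice, 6 to 8 over both ages, 4 to 6 for old HFD against young ND and 0 to 1 for age on ND. The share of all tested genes called moved between these fits as well. In old mice 0.376% were called lower without old ND replicate 2 and 2.77% without old HFD replicate 1. The shares over both ages, for old HFD against young ND and for age on ND are not given here. These ranges are therefore no result about the members alone.

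In the diet comparisons, reversed log2 fold changes in batch 2 alone were those of Mlxipl (0.0899 young, 0.24 old, 0.16 over both ages) and Thrsp (-0.96, -0.24 and -0.60). In batch 1 alone they were those of Fasn (0.0529) and Elovl6 (0.19) in young mice, and of Mlxipl (-0.40) and Thrsp (0.60) in old HFD against young ND. The latter Mlxipl value was -0.0249 without a count filter and -0.00982 with limma on log2(FPKM + 0.1). Age fold changes, none of which passed, had the other sign for 3 members in batch 1 and 3 in batch 2 on ND, and for 1 and 4 on HFD. The interaction had it for 3 and 4. Leaving out 1 mouse gave Thrsp -0.31 to 0.27 in young mice, -0.00856 to 0.51 in old mice and -0.0583 to 0.25 over both ages, and Mlxipl -0.15 to 0.16 in old HFD against young ND. With a replicate block in place of batch, Thrsp stood at -0.0422 in young mice and Mlxipl at -0.00537 in old HFD against young ND. That fit called 7 members lower over both ages, 1 in old mice and 6 in old HFD against young ND. Of all tested genes it called 6.38%, 1.73% and 11.9% lower in these comparisons. The numbers were not taken to pair the mice, so this block describes no known design feature. Each member had at least 404 counts in each mouse. How much depth and the spread between mice each add to the errors was not tested.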
